A study of Homo sapiens with 12 samples.

Results

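The 38 genes described here encode the enzymes that make cholesterol and fatty acids, the proteins that sense sterols, and a few carriers that move cholesterol. They were chosen by symbol, as members of these pathways. All 38 matched 1 row of the deposited table of 35337 genes, and all 38 were among the 13847 genes that passed a filter on low values, at least 5 normalised reads on average over the 12 libraries. The list held 8 genes of the mevalonate arm, 10 of the steps from squalene to cholesterol, 5 regulators of the sterol regulatory element binding proteins (SREBPs), 5 genes of sterol transport and the liver X receptors (LXRs), 5 of acetyl-CoA supply and fatty acid synthesis, and 5 of desaturation, elongation and glycerolipid synthesis.

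Poly(A) RNA was profiled by CEL-seq2, which reads the 3′ end of transcripts, in 6 senescent and 6 non-senescent samples of EndoC-βH3, a human pancreatic beta cell line. The line was immortalised with hTERT and the SV40 large T antigen and carries a CreER recombinase that removes both when 4-hydroxytamoxifen (4-OHT) activates it. Senescent cells had been given 4-OHT for 3 weeks, while the non-senescent cells are labelled as controls, and both carry the genotype label WT. Samples came in 2 independent batches, A with 2 libraries per group and B with 4 per group. All samples come from 1 line, and no vehicle for the controls is named. No group was given 4-OHT while keeping the transgenes, so the action of 4-OHT and the loss of the transgenes cannot be told apart. The medium listed for both groups held fatty acid free albumin, and serum is not among its named components. The labels do not say whether libraries of one batch came from separate cultures, so the p-values measure the spread between these libraries, which may be technical. Bulk RNA was measured, so fewer cells of a type and less RNA per cell cannot be told apart.

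Cholesterol is built from acetyl-CoA through mevalonate, isoprenoid units and squalene, and the sterol ring is then trimmed in a chain of oxidations and reductions. When sterols in the endoplasmic reticulum run low, SCAP carries SREBP proteins to the Golgi, where their active part is released and switches on genes of this pathway, whereas INSIG proteins hold SCAP back when sterols are plentiful. LXRs respond to oxidised sterols and switch on cholesterol exporters. Beta cells depend on membrane cholesterol for insulin granules and exocytosis, and fatty acid synthesis draws on the same acetyl-CoA.

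The libraries held 8873569 to 17106776 reads in batch A and 4672924 to 7063264 in batch B. Of the 7 beta cell genes checked, INS, IAPP, PDX1 and MAFA rose in senescent cells and PCSK1 fell. The other 2, CHGA and NKX6-1, passed at adjusted p below 0.1 but changed by less than 1.5-fold, 1 of them higher and 1 lower. In 2 of the 7 the log2 fold change had opposite signs in the batches, and in 1 of these the groups were apart in opposite directions. CHGA was abundant in every library. Other islet hormones were present as well: SST lay between 159785 and 287479 normalised reads in non-senescent libraries and between 114932 and 142626 in senescent ones, and GCG between 2463 and 5461 and between 507 and 2985. All 5 proliferation genes (MKI67, TOP2A, CCNB1, CDK1, BUB1) fell, and their summed level went from 2936 to 3439 down to 339 to 564. Of the acinar genes, 1 of 4 passed the filter (CPA1, which rose, with PRSS1 at a median of 0 in both groups), of the ductal genes 1 of 4 (KRT19, which fell, with CFTR at a median of 0 in non-senescent cells), and of the mesenchymal genes 2 of 5, with PDGFRB at 0 in all libraries. The summed acinar level was 34.2 to 63.4 in non-senescent and 144 to 255 in senescent libraries, the ductal level 246 to 379 and 80.4 to 162, and the mesenchymal level 8.74 to 133 and 10.3 to 51.5. Apart from the mesenchymal genes and the 2 beta cell genes that changed sign between batches, these markers moved with the groups, as many genes below did. Their part in the results was not tested.

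In senescent cells 8 of the 18 sterol synthesis enzymes fell, and none of the 5 genes of acetyl-CoA supply and fatty acid synthesis passed the test. At any fold change, 1 of these 5 was lower and 1 higher at adjusted p below 0.1. So few genes cannot set that count apart from the shares of all genes tested. Of the 38 genes, 10 fell, with adjusted p below 0.1 and more than 1.5-fold change, where 11.8% of all genes tested did so, and 2 rose, where 11.6% of all genes tested did so. The genes that fell were ACAT2, MVK, MVD, IDI1, FDPS, MSMO1, NSDHL, EBP, INSIG1 and FADS1, and those that rose were TM7SF2 and ABCA1. Without the limit on fold change, 20 of the 38 were lower, beside 22.3% of all genes tested, and 5 were higher, beside 23.2%. The median log2 fold change of the 38 was -0.22, with 30 of the 38 below 0, and that of all genes tested was 0.01. With libraries scaled to the same total instead, 14 of the 38 fell (also DHCR7, NR1H3, ACSS2 and ELOVL6) and 2 rose, among 2090 genes lower and 1226 higher, in place of 1632 lower and 1605 higher. The 18 sterol synthesis enzymes had a median of -0.49, with 1 that rose, TM7SF2, while the other 20 genes had a median of -0.10, with 2 that fell and 1 that rose.

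**Figure D1:**
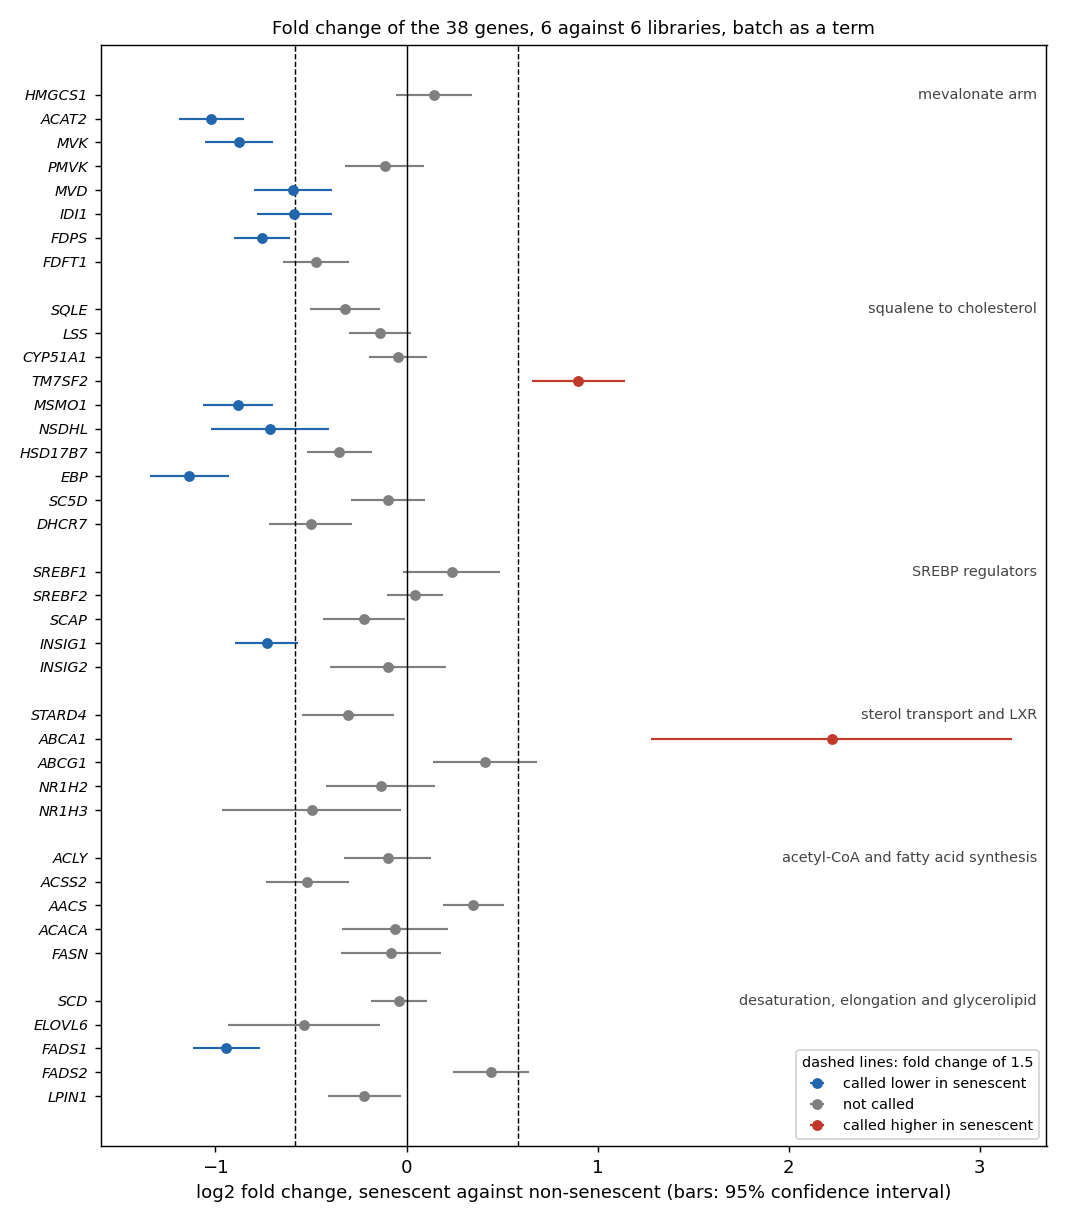
Log2 fold change of each of the 38 genes between senescent and non-senescent libraries (x axis, limma with batch as a term) in pathway order (y axis). Points are estimates, bars are 95% confidence intervals, blue and red mark genes that passed the test lower and higher, and dashed lines mark a fold change of 1.5. The mevalonate arm lies mostly left of 0, and ABCA1 stands farthest right with the widest interval.

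Each batch was also read library by library. In 13 of the 38 genes every senescent library lay below every non-senescent library of its own batch, in both batches, beside 11.9% of all genes tested. In 3 of the 38 (TM7SF2, AACS and FADS2) every senescent library lay above, in both batches, beside 11.9%. The summed normalised read count of the 18 sterol enzymes was 24444 to 24672 in non-senescent and 14944 to 15564 in senescent libraries of batch A, and 15501 to 16224 and 11398 to 12189 in batch B. The sum therefore stood at 0.621 of the non-senescent mean in batch A and at 0.740 in batch B, and the groups did not overlap within either batch. It weighs genes by their level, so FDPS (up to 5811 normalised reads) and MSMO1 (up to 4346) count heavily, and 9 of the 18 enzymes were not called.

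To show what lies upstream of genes that moved together, promoter windows were taken from RefSeq (build GRCh38.p14), which matched 33 of the 38 genes with 49 windows. ABCG1, ACAT2, FDFT1, FASN and SQLE had no entry. The 250 bases before each start were searched on both strands for 4 short motifs: TCACNCCAC, a sterol regulatory element that SREBPs bind, CACGTG, the E-box, CCAAT, the box bound by NF-Y, and GGGCGG, the GC box bound by SP1. Only exact matches were counted, so sites that differ in a letter or lie farther from the start were not seen. No match of one motif overlapped a match of another. The CCAAT box was found in 25 of the 49 windows (51.0%) and in 32.0% of all 35116 windows in the table, which include those of non-coding genes. The GC box was found in 42 of the 49 (85.7%) and in 42.6% of all windows. The E-box was found in 5 of the 49 (10.2%) and in 6.34% of all, and the sterol regulatory element in 1 of the 49 (2.04%) and in 0.883% of all. By gene, the CCAAT box was in 8 of the 9 that fell and had a window and in 13 of the other 24, beside 37.0% of all genes in the table, and the GC box in 8 of the 9 and in all of the other 24, beside 46.2%.

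Stretches of 150 bases are printed for 4 genes that fell (EBP at chrX:48521649-48521798, MSMO1 at chr4:165327517-165327666, MVD at chr16:88663162-88663311 and NSDHL at chrX:152830817-152830966), for both that rose (TM7SF2 at chr11:65111695-65111844 and ABCA1 at chr9:104928156-104928305) and for SREBF2 at chr22:41832955-41833104, the 1 gene with an exact match of TCACNCCAC in the bases searched. They were picked after the matches and the fold changes were known. Each runs 5′ to 3′ on the strand of its gene, which is the minus strand for MVD and ABCA1 and the plus strand for the others, and ends before the gene's first annotated base. Capitals mark the motif matches (ATTGG and CCGCCC are the CCAAT box and the GC box on the other strand).
EBP: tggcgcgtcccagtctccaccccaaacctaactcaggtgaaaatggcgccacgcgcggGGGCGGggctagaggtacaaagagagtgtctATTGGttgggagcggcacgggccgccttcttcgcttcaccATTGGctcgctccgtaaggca
MSMO1: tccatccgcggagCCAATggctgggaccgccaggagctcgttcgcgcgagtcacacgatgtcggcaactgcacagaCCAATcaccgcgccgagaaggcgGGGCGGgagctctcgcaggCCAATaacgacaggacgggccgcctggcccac
MVD: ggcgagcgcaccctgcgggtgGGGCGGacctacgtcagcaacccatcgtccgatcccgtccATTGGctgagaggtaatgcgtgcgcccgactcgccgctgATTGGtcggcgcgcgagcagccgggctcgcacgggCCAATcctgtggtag
NSDHL: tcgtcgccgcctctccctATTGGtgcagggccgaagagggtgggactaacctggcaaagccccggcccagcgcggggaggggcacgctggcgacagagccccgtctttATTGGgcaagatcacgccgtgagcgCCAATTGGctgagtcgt
TM7SF2: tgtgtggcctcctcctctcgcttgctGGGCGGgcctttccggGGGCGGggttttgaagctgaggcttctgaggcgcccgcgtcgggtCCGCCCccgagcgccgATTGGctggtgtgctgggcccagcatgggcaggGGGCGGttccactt
ABCA1: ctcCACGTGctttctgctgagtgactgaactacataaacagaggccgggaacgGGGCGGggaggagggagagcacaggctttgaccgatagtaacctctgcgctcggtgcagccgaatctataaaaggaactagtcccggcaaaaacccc
SREBF2: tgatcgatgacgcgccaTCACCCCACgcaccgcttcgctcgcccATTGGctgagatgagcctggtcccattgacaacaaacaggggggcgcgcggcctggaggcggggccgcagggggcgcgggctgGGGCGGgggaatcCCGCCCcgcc
EBP shows 2 CCAAT boxes, MSMO1 3, MVD 3 and NSDHL 4, of which the last 2, on opposite strands, overlap each other. TM7SF2, which rose, shows 1 CCAAT box and 4 GC boxes, and ABCA1 shows an E-box and a GC box and no CCAAT box. These matches describe the letters in the windows, and binding was not measured.

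In the mevalonate arm, 5 of the 8 genes fell, where 11.8% of all genes tested did so, and the median log2 fold change was -0.59. ACAT2, the cytosolic thiolase that joins acetyl-CoA units, lay between 495 and 1004 normalised reads in non-senescent libraries, with a median of 542, and between 214 and 545 in senescent ones, with a median of 269. The ranges overlap only because batch A was higher throughout: within batch A the groups were 989 and 1004 against 492 and 545, and within batch B 495 to 560 against 214 to 280. Its log2 fold change was -1.02 ± 0.08 (SE, n = 6 per group, limma adjusted p = 2.53e-08), a fold change of 0.493. The 3′ end of ACAT2 overlaps exons of TCP1 on the other strand, and TCP1 was also lower (-0.46 on the log2 scale, adjusted p = 2.37e-05). Whether strand was used in counting is not given in the sources used here, so reads of these 2 genes may be mixed. The same holds for 4 more of the 38 genes with an exon of another gene, on the other strand, within their last 500 bases: FDPS (RUSC1-AS1), SREBF1 (RAI1), and HMGCS1 and LSS (a long non-coding RNA each).

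MVK, mevalonate kinase, gave 816 and 817 in the non-senescent and 440 and 448 in the senescent libraries of batch A, and 323 to 421 against 187 to 230 in batch B. The groups were apart within each batch, and the log2 fold change was -0.88 ± 0.09 (adjusted p = 3.48e-07). FDPS, which makes farnesyl diphosphate, ranged from 3111 to 5811 (median 3406) in non-senescent and from 1925 to 3061 (median 2181) in senescent libraries. Every senescent library lay below every non-senescent one whatever the batch, with a log2 fold change of -0.76 ± 0.07 (adjusted p = 1.52e-07). IDI1, the isomerase of the isoprenoid building blocks, likewise did not overlap, at 1431 to 2569 against 852 to 1379.

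IDI1 and MVD, the mevalonate diphosphate decarboxylase, both had a log2 fold change of -0.59, just past the limit, with a standard error of 0.09 for IDI1 and 0.10 for MVD. Their calls are therefore close. Without non-senescent A1 or B3 or senescent A1, B1 or B2 the log2 fold change of MVD missed the limit, coming as close to 0 as -0.56, and without the batch term its adjusted p was 0.180. Without non-senescent A1 or A2 or senescent A1, A2 or B4 that of IDI1 missed it too, coming as close to 0 as -0.53. Batch B alone gave -0.43 for IDI1, and batch A alone -0.90. FDFT1, squalene synthase and the branch point towards sterols, was lower within both batches (710 and 785 against 519 and 538 in A, 437 to 581 against 334 to 379 in B) with a log2 fold change of -0.47 ± 0.08, under the limit (adjusted p = 0.00021).

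The other 2 genes of the arm gave no call. PMVK, which follows MVK, had a log2 fold change of -0.11 (95% confidence interval -0.32 to 0.09, adjusted p = 0.390). HMGCS1, the HMG-CoA synthase that opens the mevalonate route, had one of 0.15 (-0.05 to 0.35, adjusted p = 0.241). Its groups were apart in opposite directions: 975 and 1109 against 895 and 917 in batch A, but 416 to 508 against 543 to 634 in batch B.

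From squalene to cholesterol, 3 of the 10 genes fell and 1 rose, where 11.8% and 11.6% of all genes tested did so, with a median log2 fold change of -0.34. EBP, the sterol isomerase that moves a ring double bond, showed the lowest fold change of the 38. It gave 1623 and 1655 against 861 and 1037 in batch A, and 573 to 726 against 243 to 280 in batch B. The log2 fold change was -1.14 ± 0.10 (adjusted p = 7.56e-08), a fold change of 0.455, with the groups apart in both batches. Without the batch term, which leaves the gap between batches in the spread, its adjusted p was 0.108.

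MSMO1 and NSDHL act together to remove methyl groups from the sterol ring. MSMO1 ranged from 2695 to 4346 (median 3011) in non-senescent and from 1564 to 1884 (median 1729) in senescent libraries, which did not overlap, and its log2 fold change was -0.88 ± 0.09 (adjusted p = 3.49e-07). NSDHL ranged from 149 to 222 (median 197) and from 73.5 to 145 (median 125), also apart, with -0.71 ± 0.15 (adjusted p = 0.000902), and in batch A alone its fold change of -0.49 on the log2 scale was under the limit. HSD17B7, the reductase of the same complex, gave 211 and 249 against 211 and 215 in batch A and 1054 to 1118 against 734 to 816 in batch B. Its log2 fold change was -0.35 ± 0.08 (adjusted p = 0.00218), and its pseudogene HSD17B7P2 took up 1661 reads over the 12 libraries, so the division of reads between both is uncertain.

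The genes of the late reductions differed from each other. DHCR7, the last reductase of the pathway, was lower within both batches (800 and 874 against 506 and 507, then 367 to 413 against 237 to 354), with a log2 fold change of -0.50 ± 0.10 (adjusted p = 0.000926), under the fold limit. TM7SF2, a sterol C14 reductase, rose. It ranged from 77.0 to 110 (median 93.2) in non-senescent and from 157 to 204 (median 170) in senescent libraries, with no overlap, a log2 fold change of 0.90 ± 0.12 (adjusted p = 9.36e-06) and a fold change of 1.86.

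LBR, which is not among the 38 genes, carries out the same C14 reduction in the nuclear envelope, and it fell by 0.88 on the log2 scale (adjusted p = 0.00694). The ratio of TM7SF2 to LBR reads in a library was 0.560 to 1.11 in non-senescent and 1.78 to 5.47 in senescent cells. The ratio was higher in every senescent library than in any non-senescent one. This pair was compared after its values were seen, and the ratio is given without a test.

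SQLE, the squalene epoxidase, had a log2 fold change of -0.32 ± 0.09 (adjusted p = 0.00724), with 440 and 487 against 337 and 420 in batch A and 526 to 716 against 462 to 527 in batch B, where the ranges touched. LSS, which closes the sterol ring, had -0.14 (-0.30 to 0.02), CYP51A1, the C14 demethylase, -0.04 (-0.20 to 0.11), and SC5D, the C5 desaturase, -0.10 (-0.29 to 0.10). None of these 3 passed at any fold (adjusted p = 0.173, 0.672 and 0.431). Their intervals do not reach the fold limit of 1.5, which is 0.58 on the log2 scale.

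**Figure D2:**
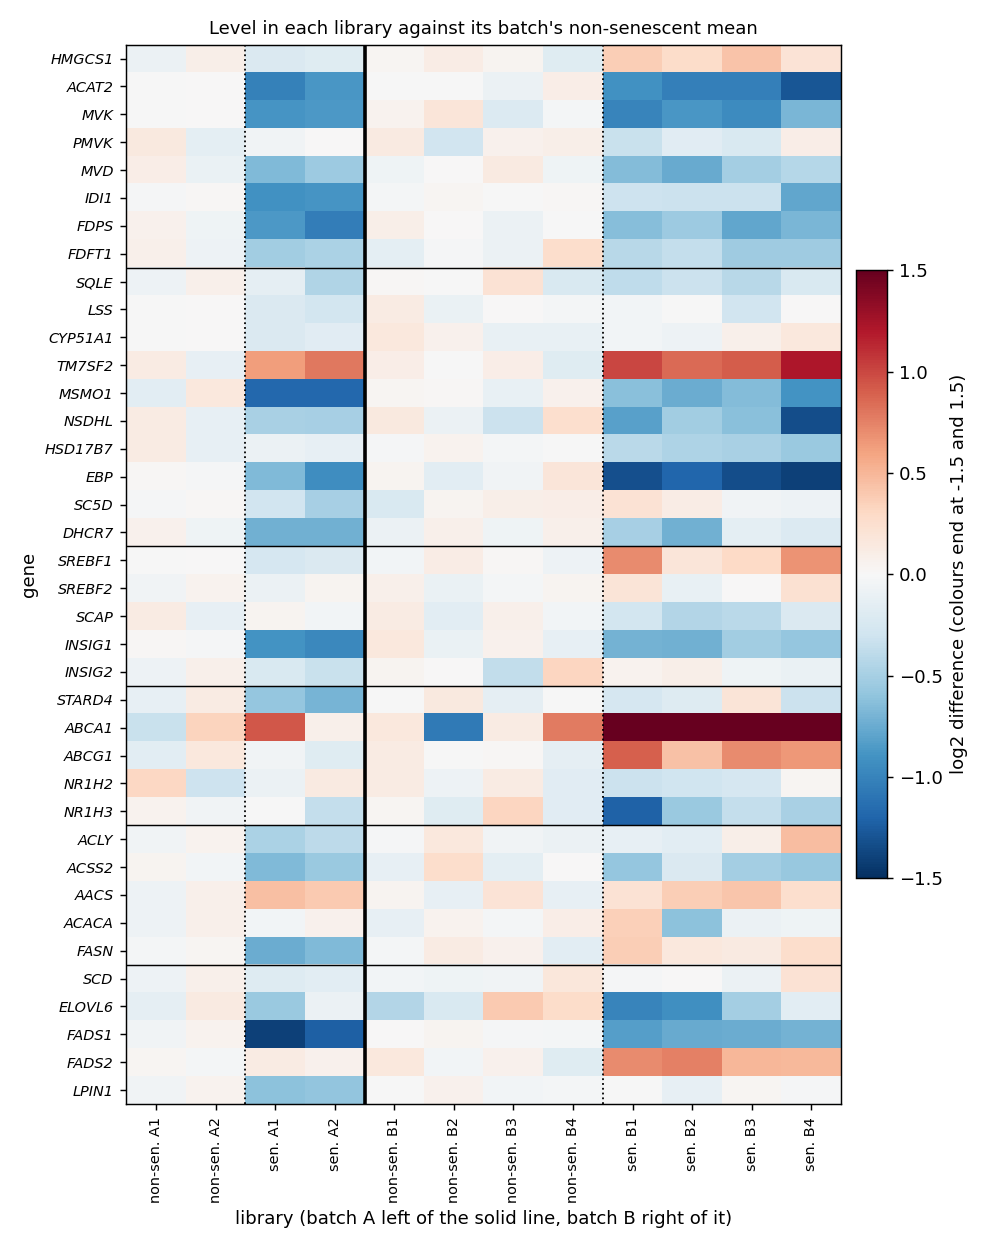
Level of each of the 38 genes (y axis) in each library (x axis), as the difference in log2(normalised read count + 1) from the mean of the non-senescent libraries of the same batch. Blue is lower, red is higher, and colours end at 1.5 in both directions. The senescent columns of both batches are blue over most of the sterol enzymes and red for TM7SF2, while FASN and HMGCS1 turn from blue in batch A to red in batch B.

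Among the 5 SREBP regulators, INSIG1 was the 1 that fell. INSIG1, the endoplasmic reticulum anchor that retains SCAP and is itself a classic SREBP target, ranged from 910 to 1172 (median 967) in non-senescent and from 472 to 726 (median 637) in senescent libraries, with no overlap. Its log2 fold change was -0.73 ± 0.08 (adjusted p = 1.2e-06), a fold change of 0.602. INSIG2, its paralog, was read at 161 and 178 against 134 and 145 in batch A and at 35.1 to 57.2 against 42.3 to 48.3 in batch B. Its log2 fold change was -0.10 (-0.40 to 0.21, adjusted p = 0.636).

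SREBF2, which encodes the SREBP that mainly drives cholesterol genes, gave no call. Its level was 3257 and 3529 against 3179 and 3488 in batch A and 1445 to 1635 against 1433 to 1809 in batch B, so the groups overlapped in both, and the log2 fold change was 0.04 (-0.10 to 0.19, adjusted p = 0.661). SREBF1, which encodes the form tied to fatty acid genes, had 0.24 (-0.02 to 0.49, adjusted p = 0.133), from 701 and 705 against 592 and 607 in batch A and 595 to 675 against 712 to 1026 in batch B. SCAP, the escort protein, had -0.22 ± 0.10 (adjusted p = 0.097), with overlapping groups in batch A and 187 to 227 against 154 to 179 in batch B. The measure is of transcripts, and cleavage of SREBP proteins was not assayed.

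In sterol transport, ABCA1, the pump that loads cholesterol onto apolipoproteins, rose by the widest margin of the 38 genes. Its counts were low: 11, 13, 3, 1, 3 and 6 reads in the non-senescent and 36, 14, 30, 45, 52 and 22 reads in the senescent libraries, in the order A1, A2, B1 to B4. The normalised read count was 1.38 to 10.3 (median 5.32) against 8.46 to 59.5 (median 31.9). The groups overlapped in batch A and were far apart in batch B, and the log2 fold change was 2.23 ± 0.45 (1.28 to 3.17, adjusted p = 0.000766). In batch A alone it was 0.50 and did not pass.

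ABCG1, the exporter that works beside ABCA1, had a log2 fold change of 0.41 ± 0.13 (adjusted p = 0.0182), under the fold limit, and again batch B carried it: 209 to 250 against 310 to 425, while batch A overlapped at 536 and 663 against 527 and 573. The receptor genes that act on both exporters gave no call. NR1H3 (LXRα) was at 23.4 to 33.6 against 10.9 to 28.7 (log2 fold change -0.50 ± 0.22, adjusted p = 0.0894) and NR1H2 (LXRβ) at 69.1 to 132 against 80.4 to 123 (-0.13, -0.42 to 0.15). STARD4, which carries cholesterol between membranes, had -0.31 ± 0.11 (adjusted p = 0.0441), from 370 and 436 against 248 and 269 in batch A and from 238 to 289 against 209 to 299 in batch B.

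None of the 5 genes of acetyl-CoA supply and fatty acid synthesis was called, where 11.8% of all genes tested fell and 11.6% rose. Their median log2 fold change was -0.08. FASN, the fatty acid synthase, gave 12941 and 13445 against 7869 and 8342 in batch A, and 2228 to 2705 against 2742 to 3222 in batch B. The groups were apart in both batches and in opposite directions, so the log2 fold change over both was -0.08 (-0.34 to 0.18, adjusted p = 0.655). ACLY, which splits citrate into acetyl-CoA, showed 5626 and 6027 against 4179 and 4426 in batch A and 850 to 1008 against 813 to 1253 in batch B (-0.10, -0.33 to 0.13).

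ACACA, the acetyl-CoA carboxylase that commits carbon to fatty acids, overlapped in both batches (-0.06, -0.34 to 0.22). ACSS2, which makes acetyl-CoA from acetate, was lower within both batches, at 355 and 376 against 230 and 248 and at 172 to 230 against 127 to 164. Its log2 fold change was -0.52 ± 0.10 (adjusted p = 0.000738), just under the limit. AACS, which activates acetoacetate for lipid synthesis, was higher within both batches, at 764 and 845 against 1059 and 1098 and at 664 to 833 against 841 to 967, with 0.35 ± 0.08 (adjusted p = 0.0013).

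Of the 5 genes of desaturation, elongation and glycerolipid synthesis, FADS1 fell. FADS1, the delta-5 desaturase of long polyunsaturated fatty acids, lay at 6678 and 7183 against 2620 and 2969 in batch A and 8232 to 8640 against 4735 to 5149 in batch B. No senescent library reached a non-senescent one, and the log2 fold change was -0.94 ± 0.08 (adjusted p = 1.08e-07), a fold change of 0.520. FADS2, the delta-6 desaturase that acts before it in the same route, went the other way within both batches: 1423 and 1479 against 1523 and 1582, then 640 to 810 against 1023 to 1232. Its log2 fold change was 0.44 ± 0.10 (adjusted p = 0.00134), under the fold limit.

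FADS1 and FADS2 overlap on chromosome 11 in opposite orientation, with FADS1 inside the interval of FADS2 (GRCh38, GENCODE v44, FADS1 at 61799627 to 61829318 on the minus strand and FADS2 at 61792980 to 61867354 on the plus strand), and no exon of either falls within the last 500 bases of the other. The ratio of FADS1 to FADS2 reads was 4.51 and 5.05 against 1.66 and 1.95 in batch A, and 10.5 to 12.9 against 3.97 to 5.04 in batch B. The ratio was lower in every senescent library of each batch. As with TM7SF2 and LBR, the pair was chosen after its values were seen.

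SCD, the delta-9 desaturase, had a log2 fold change of -0.04 (-0.19 to 0.11, adjusted p = 0.688) and overlapped in batch B, at 2288 to 2689 against 2254 to 2780. ELOVL6, which lengthens saturated chains, had -0.54 ± 0.19 (adjusted p = 0.0324) with overlap in both batches, and it passed the fold limit without non-senescent A1 or B1 or without senescent A2 or B4, at -0.63 at the lowest. LPIN1, a phosphatidate phosphatase, had -0.22 ± 0.09 (adjusted p = 0.0654), with 880 and 946 against 596 and 606 in batch A and overlapping ranges in batch B, at 641 to 688 against 601 to 672.

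**Figure D3:**
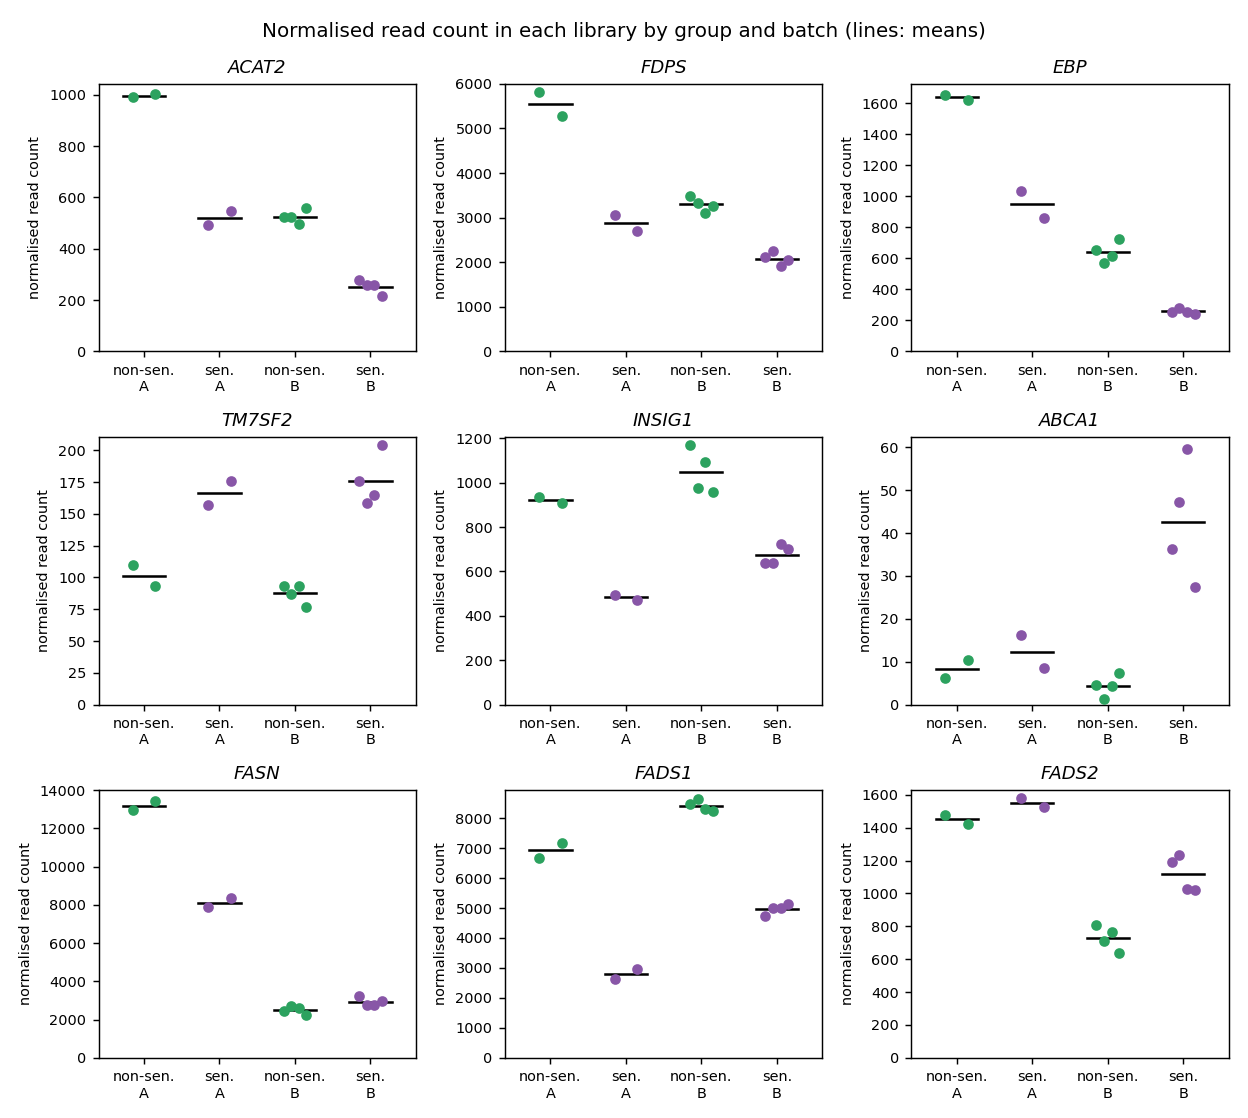
Normalised read count (y axes, linear from 0) of 9 of the 38 genes in each of the 12 libraries, by group and batch (x axes). Points are libraries and lines are means. ACAT2, FDPS, EBP, INSIG1 and FADS1 are lower and TM7SF2 and FADS2 higher in the senescent libraries of both batches, FASN is lower in batch A and higher in batch B, and ABCA1 is separated only in batch B.

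The batches differed in the level of many of these genes, in non-senescent cells too. In 15 of the 38 genes all 4 libraries of batch A lay above all 8 of batch B, beside 19.9% of all genes tested. The reverse was seen in 1 of the 38, HSD17B7, and in 2682 of the 13847 genes tested. The ratio of the mean in non-senescent batch A to that in non-senescent batch B was 6.42 for ACLY, 5.29 for FASN and 3.13 for SCD, and 0.214 for HSD17B7. INSIG1 (0.878) and SREBF1 (1.12) were nearly level. What set the batches apart is not given in the sources used here, and depth differed with them, as stated above.

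The response itself also differed between batches for some of the genes. An interaction of batch and group passed at an adjusted p under 0.1 for 8 of the 38 genes, beside 4.21% of all genes tested, and for all 8 the log2 fold change was more positive in batch B, as it was for 322 of the 583 genes that passed among all tested. For FASN it was -0.70 in A and 0.23 in B (adjusted p of the difference = 0.000747), -0.23 and 0.47 for SREBF1, -0.20 and 0.32 for HMGCS1, and -0.12 and 0.67 for ABCG1. It was 0.50 and 3.09 for ABCA1, 0.10 and 0.61 for FADS2, -0.60 and -0.03 for LPIN1, and -1.31 and -0.76 for FADS1. FADS1 was therefore lower in both batches, and ABCG1, FASN, SREBF1 and HMGCS1 changed side, ABCG1 with groups that overlapped in batch A. Groups apart in opposite directions in the batches were seen in 3 of the 38 genes (FASN, SREBF1 and HMGCS1), beside 1.85% of all genes tested.

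HMGCS1 was the 1 sterol enzyme among the 8, and which genes passed moved with the settings. ABCG1, FASN, FADS1 and LPIN1 passed in all alternatives run for this test, in which single libraries were left out of batch B only. HMGCS1 did not pass with TMM scaling, nor without non-senescent B1 or B4, nor without senescent B1, B2 or B3. EBP passed with TMM scaling, with the filter at 20 and without non-senescent B2, MSMO1 with the filter at 20, with the same total per library and without senescent B4, and IDI1 without senescent B4. The 18 enzymes had a median log2 fold change of -0.50 within A and -0.45 within B, while that of the other 20 genes was -0.21 and -0.02.

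**Figure D4:**
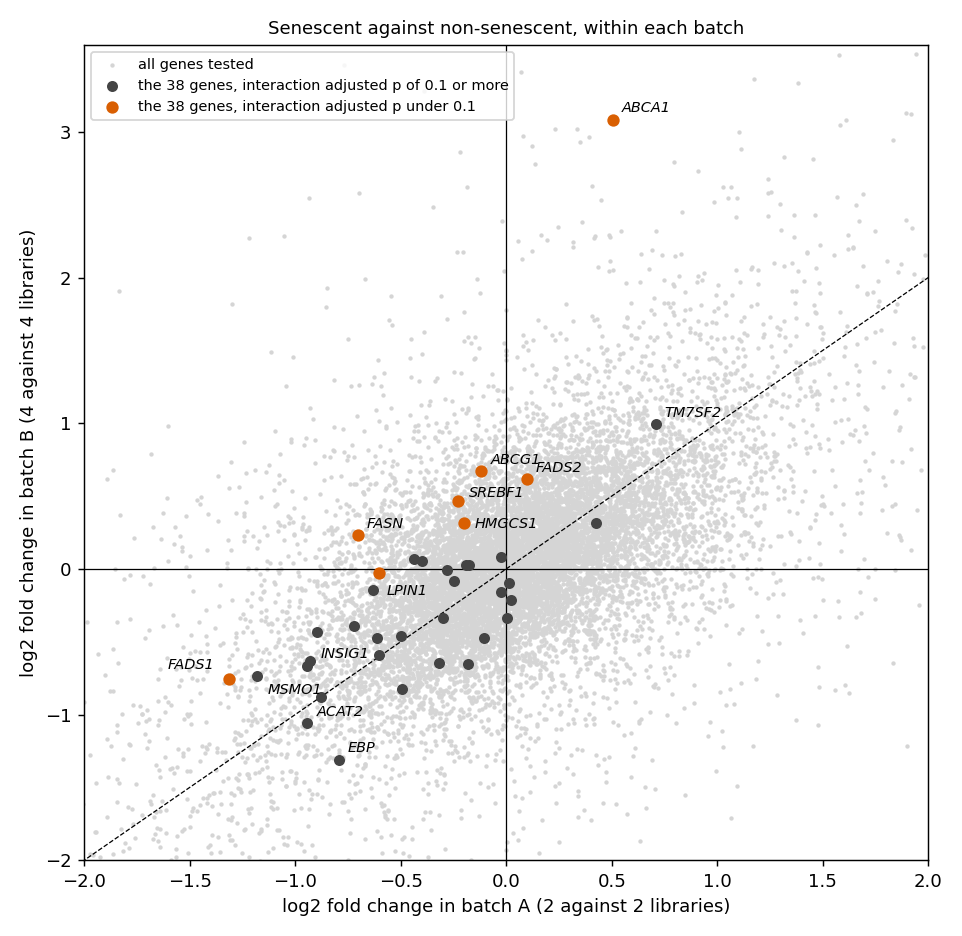
Log2 fold change between senescent and non-senescent cells in batch A (x axis) and in batch B (y axis) for the 38 genes (large points) and all genes tested (grey, of which 537 lie outside the axes). The dashed line marks equal change, and orange points are the 8 genes whose response differed between batches. All 8 lie above the dashed line, while EBP, ACAT2, MSMO1 and INSIG1 lie in the lower left, below 0 in both batches.

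Of 30 other genes of sterol metabolism tested, 4 fell and 3 rose, shares close to the 11.8% lower and 11.6% higher of all genes tested, and their median log2 fold change was 0.05. TMEM97, a sterol-responsive membrane protein, fell by 1.77, from 2510 to 4303 down to 663 to 1196. HSD3B7 and CYP27A1, enzymes of bile acid synthesis, had log2 fold changes of -1.44 and -0.93, and LBR one of -0.88. CYP46A1, which hydroxylates cholesterol, rose (1.11), as did GRAMD1B, a carrier of plasma membrane cholesterol (0.92), and SCARB1, a lipoprotein receptor (0.70).

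Of 34 other genes of fatty acid and glycerolipid synthesis tested, 3 fell and 4 rose, shares close to or below the 11.8% and 11.6% of all genes tested, with a median of -0.02. ELOVL2, which elongates polyunsaturated chains after FADS1, fell by 1.75, and ACSL1 and ACSL4, acyl-CoA synthetases, had log2 fold changes of -0.77 and -0.73. DGAT2 and AGPAT2, which add acyl chains on the way to triglyceride, rose (2.16 and 1.84), as did SCD5 (0.90) and LPIN3 (0.71). DGAT2 was at 3.18 to 11.2 normalised reads in non-senescent and 13.7 to 42.0 in senescent libraries, and AGPAT2 at 18.9 to 34.8 and 55.7 to 124, both without overlap.

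Of 30 genes of fatty acid oxidation tested, 6 rose and 1 fell, where 11.6% and 11.8% of all genes tested did so, and the median was 0.22. PDK4, which diverts pyruvate from oxidation, rose by 1.39 on the log2 scale, CPT1A, the gate of mitochondrial fatty acid import, by 0.93, and HADH, an oxidation enzyme, by 0.87, from 1138 to 1593 up to 2342 to 2627. ACADVL (0.80), ACAA1 (0.75) and the lipid droplet coat gene PLIN2 (0.75) rose too, and PPARGC1A, a coactivator read at 27.8 or less, fell by 1.70. The counts of these 3 lists are a description.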

How the data were processed

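The 12 libraries were CEL-seq2 libraries of 1 cell line, 6 per group. By the study's methods and the submitters' processing notes, reads were trimmed with cutadapt and quantified with Salmon 0.13.1 on GRCh38, and DESeq2 normalised the values and compared the groups with a correction for batch. Which annotation was used, whether strand was, and how molecular identifiers were treated is not given in the sources used here, so reads are not known to be independent molecules. The deposited values are a signal: the authors divided each library's reads by 1 size factor, and these values are called normalised read counts here. The authors' columns of mean, log2 fold change, standard error, statistic, p-value and adjusted p-value were not used.

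All of 196021 nonzero values (100%, within 0.01) were whole multiples of the worth of 1 read, so read numbers were recovered. A count of 0 allows up to 3 reads, 0.175 to 0.642 ppm of a library, and this covers counting error only. No 2 libraries of a group and batch agreed within sampling noise (chi-square). The 38 genes, the other lists and the motifs were chosen with earlier results of these data known.

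Log2(normalised read count + 1) of 13847 genes with a mean of at least 5 was tested with limma 3.58.1 (R 4.3.3; empirical Bayes with an intensity trend, two-sided, batch as a term), with Benjamini-Hochberg adjustment over all genes tested. The study's own limits, adjusted p below 0.1 and more than 1.5-fold change, set which genes were called. On this log scale the change of low genes is understated. The response per batch came from an interaction term in the same model. All 38 genes were named, and of the other lists the called genes, at most 6 per direction. TCP1, RAI1 and HSD17B7P2 were added after their values were seen. RUSC1-AS1 was added for its position and had no value under this symbol. Alternatives were pseudocounts of 0.1 and 8, a filter at 20 or none, 3 other scalings, no batch term, a replicate block, each batch alone, each library left out, no fold limit, and edgeR 4.0.16 (quasi-likelihood) and DESeq2 1.42.0 on the recovered reads. The fit was tested on simulated data. Gene positions are those of GENCODE v44 (GRCh38) and promoters those of RefSeq.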

Additional observations from a re-analysis of the deposited data

Results flagged for a closer look

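In 2 of 152 groups of libraries tested, 1 library stood apart from the rest by Dixon's criterion, which chance alone passes in about 1 of 20 groups. Groups of batch A hold 2 libraries, too few for this criterion, and both flags were in batch B, so 2 of 152 may understate the share. IDI1 in senescent batch B was 852 in library B4 and 1166 to 1176 in the other 3. SCD in non-senescent batch B was 2689 in library B4 and 2288 to 2339 in the other 3.

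The response differed between batches for 8 of the 38 genes (interaction, limma, adjusted p under 0.1). The log2 fold change in batch B minus that in batch A was 2.58 for ABCA1, 0.94 for FASN, 0.79 for ABCG1 and 0.70 for SREBF1. It was 0.57 for LPIN1, 0.55 for FADS1, and 0.52 for both FADS2 and HMGCS1. The number of such genes was 5 without non-senescent B4, without senescent B1 or without senescent B2, and 10 without senescent B4. Batches also differed in depth and in the level of FASN, HMGCS1, ABCG1 and FADS2, and the part of these in the differences was not tested.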

How the results depend on the processing

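Over the alternatives other than leaving out a library, 498 comparisons of the 38 genes stayed on the same side of the threshold. Another 26 newly passed it, 7 no longer passed it, and 0 called changes turned direction. With 1 library left out these were 442, 4, 10 and 0. Genes called in neither fit were counted as staying whatever their direction. Some of them turned direction between settings, such as FASN and SREBF2.

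With no batch term, 2143 of all genes passed, 1037 of them higher. With no fold limit 6301 passed, 3214 higher and 3087 lower, and of the 38 genes 5 were higher and 20 lower, with 15 other sterol genes, 16 other fatty acid and glycerolipid genes and 15 fatty acid oxidation genes. Of the 38 genes, 1 rose with the filter at 20, which removes ABCA1, 1 in batch A by itself and 4 in B. By itself, batch A gave 11 of the 30 fatty acid oxidation genes tested, beside 3241 of the 13847 genes tested. Batch B by itself gave 5 of these 30, beside 3327 of the 13847. The fit of both batches gave 7 of the 30, beside 3237. The number of the 38 whose response differed between batches ran from 5 to 10 with 1 library of batch B left out, and libraries of batch A were not left out for this test. The number that fell ran from 8 to 11 with 1 library left out, and was 14 when libraries were scaled to the same total, which moved the median of all genes from 0.01 to -0.09 and the share of calls that were higher from 49.6% to 37.0%. edgeR on recovered reads gave 10 and DESeq2 9.

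Same-numbered libraries did not deviate together (correlation between -0.05 and 0.02), so the values showed no pairing by number. With 2 libraries per group, A1 and A2 must give the same correlation. Such correlations cannot tell whether same-numbered libraries shared a culture. With a replicate block, 3211 genes passed, 10 of the 38 fell and 2 rose.

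Depth limits the low genes. ABCA1 rested on 1 to 13 reads per non-senescent library and NR1H3 on 9 to 64 reads per library. With 2 libraries per group, batch A gives wide intervals.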
